A study of Macaca mulatta with 8 samples.

Results

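Retina treated with a subretinal bleb of AAV8-GRK1-hRPGR was compared with uninjected retina of the same animal, a wild-type male macaque (NHP2) 6 years of age. The members are the cells of 4 droplet single-cell libraries, 1 bleb library and 1 uninjected library from each eye. Barcodes with at least 1500 UMIs (unique molecular identifiers, each counting 1 captured RNA molecule) and 300 genes were kept, which gave 45071 of the 91803 cells in the series. The right bleb held 12629 cells, the left bleb 10120, the right uninjected punch 10227 and the left uninjected punch 12095. The vector is an adeno-associated virus of serotype 8 that carries a codon-optimised human RPGR gene (coRPGR) behind GRK1, a photoreceptor promoter. Both eyes received triamcinolone, a corticosteroid, beside the tenon at surgery, and the left eye also received adalimumab, an antibody against TNF, in the vitreous. Each eye also carried a separate AAV8-GRK1-mScarlet bleb, so the uninjected punches came from operated eyes and not from naive ones. All libraries came from 1 animal, so p-values measure the spread between its punches and not between animals, and the drug cannot be told apart from the eye.

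RPGR is a protein of the photoreceptor connecting cilium, and its loss causes a form of X-linked retinitis pigmentosa. The cells that surround photoreceptors respond to danger signals through interferons. Type I interferons switch on antiviral effectors, and interferon gamma, made by T and NK cells, switches on chemokines such as CXCL9 and CXCL10 and the machinery that displays peptides on MHC class I and class II molecules. Müller glia span the whole retina and support its neurons, and microglia are its resident myeloid cells.

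The libraries held 90634306 to 122705046 UMIs each, and pairs of NHP2 libraries shared 1.41 to 1.95% of the cell barcodes of the smaller one. Cells were placed in classes by marker genes, so the levels of those markers describe the classes and do not test them: the 7 horizontal cell markers summed to 3267 to 3699 CPM (UMIs with each class sum scaled to the same total) in horizontal-like cells, and the 12 Müller markers to 24270 to 31850 CPM in Müller glia-like cells. Among the 10 leading genes of a class, 1 was a marker of its own in horizontal-like cells, 2 in Müller glia-like, 3 in amacrine-like, 5 in bipolar-like and 7 in ganglion-like cells, and none was a marker of another class. Gene values below are CPM scaled by the TMM factors of the fit unless called unscaled, and log2 fold changes are bleb over uninjected. The fit also held the 2 mScarlet bleb libraries of NHP2, which enter the estimate of the spread and the filter on low counts. With the 4 hRPGR and uninjected libraries alone fewer genes were tested (8756 in place of 9618 in horizontal-like, 8030 in place of 10626 in myeloid-like and 3495 in place of 6505 in T/NK-like cells), and 3 genes in place of 15 were called in horizontal-like cells. One library went against its label: the right uninjected library held 9748 coRPGR UMIs, while the left uninjected library held 0. The same library also had a high level of type I interferon genes, so medians of the type I interferon list are given with and without it. For reading the counts below, the share of all tested genes with both blebs above both uninjected libraries was 14.2% over all cells, 9.23% in rod-like, 16.9% in cone-like, 14.8% in bipolar-like, 15.0% in horizontal-like, 14.1% in amacrine-like, 17.3% in ganglion-like, 11.3% in Müller glia-like, 16.0% in myeloid-like and 20.2% in T/NK-like cells. The share with both blebs below was, in the same order, 9.16, 10.3, 14.8, 14.1, 14.9, 13.6, 17.7, 12.4, 12.8 and 14.9%.

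Of the 20 genes called in any class below, 13 had a RefSeq start on an assembled chromosome, and 4 of these 13 held an interferon-stimulated response element core (GAAA, any 2 bases and GAAA again, on either strand) in the 300 bases before that start. Over all 20782 protein-coding promoters of this length, 3.65% held the core, and 7.24% held a gamma-activated site (TTCNNNGAA, which reads the same on both strands). The stretches of 3 of the 4, CXCL10, B2M and BST2, are shown because they hold the core. The window of BTN2A2, the fourth, is not shown, as its core lies at the end of a long run of GAAA repeats. MAMU-A, NLRC5, IRF1, BTN3A3 and RASD1, also called in horizontal-like cells, held no core. Sequences are from RefSeq on Mmul_10, 5′ to 3′ on the gene's strand, with the core or the gamma-activated site in capitals.
CXCL10 (chr5:57698178-57698258, plus strand): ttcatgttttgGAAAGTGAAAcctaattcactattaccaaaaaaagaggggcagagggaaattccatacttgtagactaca
B2M (chr7:21220477-21220612, plus strand): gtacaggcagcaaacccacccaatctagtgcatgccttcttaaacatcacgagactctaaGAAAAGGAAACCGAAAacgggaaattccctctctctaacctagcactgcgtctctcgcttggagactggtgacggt
BST2 (chr19:16907650-16907785, minus strand): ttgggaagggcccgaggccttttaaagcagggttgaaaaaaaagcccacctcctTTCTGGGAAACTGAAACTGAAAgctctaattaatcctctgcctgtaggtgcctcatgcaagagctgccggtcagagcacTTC
The core lies 280 bases before the annotated start in CXCL10, and 2 overlapping cores lie 79 and 73 bases before it in B2M and 81 and 75 bases before it in BST2. A gamma-activated site overlaps the first core of BST2, and the capitals at the end of that stretch begin another. A match is a description of letters and was not tested as a binding site.

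Transgene UMIs were found in both blebs and were more frequent in the right one. In rod-like cells unscaled coRPGR was 3645 CPM in the right bleb and 1432 CPM in the left bleb, against 197 CPM in the right uninjected library and 0 in the left. In cone-like cells it was 12890 and 483 CPM in the right and left blebs and 19.1 and 0 CPM in the uninjected libraries. The order of the 4 libraries was the same in both photoreceptor classes, with the right bleb highest and the left uninjected retina at 0. Bipolar-like cells held 591 and 124 CPM in the right and left blebs, and Müller glia-like cells held 573 and 177 CPM. Barcodes of 100 to 1000 UMIs, which hold mostly free RNA, gave 3482 and 2251 CPM in the blebs and 299.8 and 0 CPM in the uninjected libraries. Every inner retinal, glial and immune class was below that free RNA level in its own library, so coRPGR in these classes is read as background. In the right bleb rod-like and cone-like cells stood above the free RNA of their library, and so did the 13 RPE-like cells (retinal pigment epithelium), with 692 coRPGR UMIs or 6868 CPM. In the left bleb the 24 RPE-like cells had 20 UMIs or 148 CPM, and rod-like, cone-like and RPE-like cells of the left bleb and of the right uninjected library were all below free RNA. Native RPGR over all cells was 75.7 and 64.9 CPM in the right and left blebs and 61.0 and 73.3 CPM in the uninjected libraries, so the groups overlapped.

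**Figure D1:**
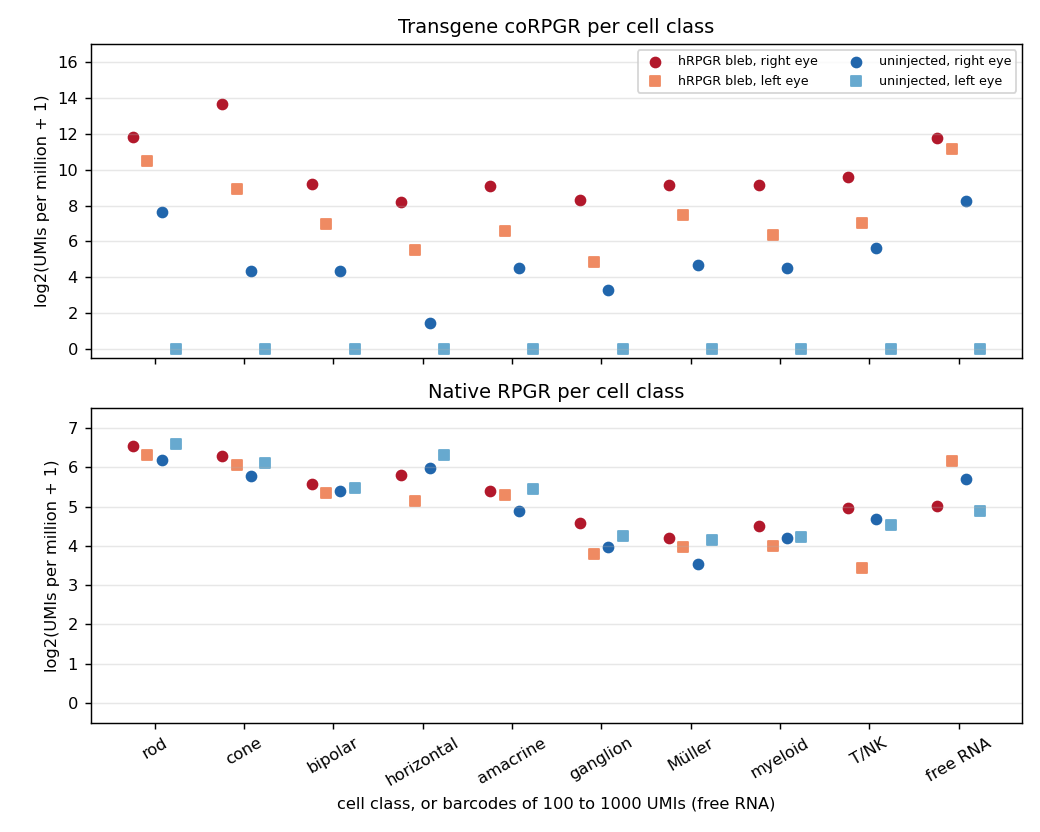
Transgene coRPGR (upper panel) and native RPGR (lower panel) in 9 cell classes and in free RNA, as log2(unscaled CPM + 1), with 1 point for each of the 4 libraries. For coRPGR in the right bleb the cone-like and rod-like points lay above free RNA (12890 and 3645 against 3482 CPM). In the left bleb free RNA was the highest coRPGR point (2251 CPM), and the left uninjected library sat at 0 throughout. Native RPGR overlapped between the groups except in horizontal-like cells, at 54.4 and 34.4 CPM in the blebs against 62.6 and 78.5 CPM.

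Immune cells took a larger share of the cells in both blebs, and the difference was far larger in the right eye. T/NK-like cells, which kill infected cells and make interferon gamma, were 0.863% of cells in the right bleb (109 cells, 95% exact binomial interval 0.709 to 1.04%) and 0.346% in the left bleb (35 cells, 0.241 to 0.481%). In uninjected retina they were 0.225% on the right (23 cells, 0.143 to 0.337%) and 0.273% on the left (33 cells, 0.188 to 0.383%). The ratio was thus 3.84 on the right and 1.27 on the left, where the intervals overlapped. Intervals cover counting error only. Myeloid-like cells were 2.50 and 1.12% in the right and left blebs and 0.645 and 0.488% in the uninjected libraries, a ratio of 3.88 on the right and 2.29 on the left. B/plasma-like cells, the makers of antibody, numbered 106 in the right bleb (0.839%), 5 in the left bleb, 1 in the right uninjected library and 4 in the left. For all 3 classes both blebs lay above both uninjected libraries, with p = 0.333 (exact permutation, two-sided), which no split of 2 libraries against 2 can go below. For B/plasma-like cells this order rests on 5 against 4 cells in the left eye, 3 of the 5 were among the highest doublet scores, and without such cells p was 0.667 (exact permutation).

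The shares of the resident classes were mixed. Müller glia-like cells were 6.75 and 10.4% in the right and left blebs and 6.69 and 10.8% in the uninjected libraries, so the share followed the eye (exact permutation p = 1). Horizontal-like, bipolar-like, amacrine-like and ganglion-like shares overlapped between the groups. Cone-like cells were lower in both blebs, at 2.86 and 2.17% against 4.46 and 4.34%, again with an exact permutation p of 0.333. Cells that met the rule of no class were 5.71 and 2.89% of the blebs and 1.13 and 2.33% of the uninjected libraries. Mixed cells, which met the rule of a class but held too many rod marker UMIs, were 3.42 and 2.39% of the blebs. In the right and left uninjected libraries they were 2.14 and 3.85%. Part of any class may lie among the unassigned and mixed cells.

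**Figure D2:**
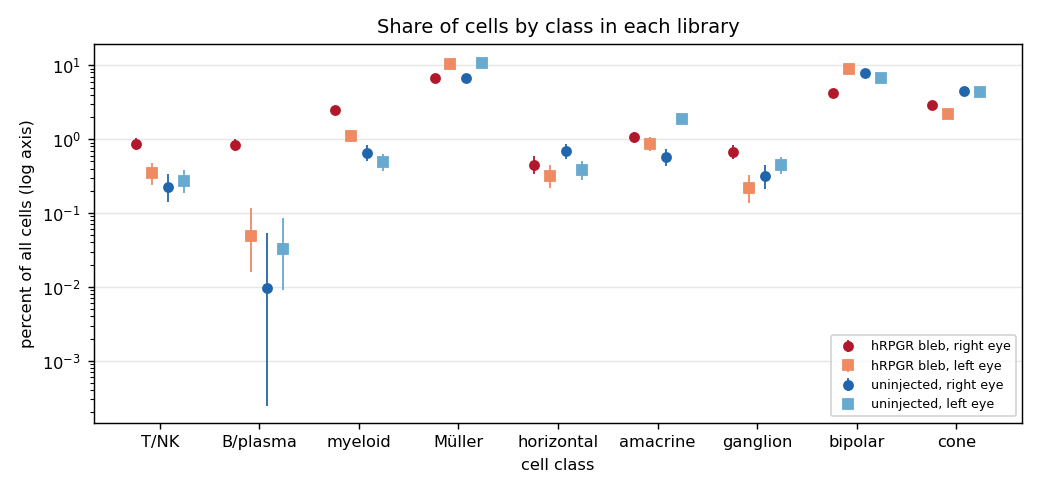
Percent of all cells in each class on a log axis, with 1 point per library and bars for the 95% exact binomial interval. T/NK-like, B/plasma-like and myeloid-like shares were higher in both blebs, and the Müller glia-like share was 6.75 and 6.69% in the right libraries and 10.4 and 10.8% in the left ones.

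Müller glia of both blebs carried CXCL10, the chemokine that draws CXCR3-bearing T cells, at a level hardly seen in uninjected retina. The gene (chromosome 5, 57698478 to 57699998, plus strand, Mmul_10) had 777 and 936 UMIs in Müller glia-like cells of the right and left blebs and 2 and 7 UMIs in the uninjected libraries. As CPM these were 133 and 170 against 0.459 and 0.717, so the groups stood far apart in both eyes. CXCL10 rose by 7.86 on the log2 scale (SE 0.26) (edgeR, adjusted p = 0.000962, or 0.0103 with the eye as a block). It was the 1 gene called among 13261 tested in Müller glia (0.00754%), and it kept its call when any 1 library was left out, with adjusted p up to 0.0206. Among cells with at least 1% mitochondrial UMIs the fold was as large (8.36), but the adjusted p was 0.151, and in fits of the 4 libraries alone with a block it was 0.0597 (eye) and 0.117 (crossed).

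The main source of CXCL10 also differed between treated and untreated retina. In the blebs Müller glia-like cells held 71.3% of all CXCL10 UMIs (1713 of 2403) and myeloid-like cells held 12.9%. In uninjected retina Müller glia-like cells held 3.27% and myeloid-like cells held 88.0% (242 of 275). Within myeloid-like cells the level was lower in the blebs, at 93.0 and 90.7 CPM against 312 and 230.2 CPM, with no overlap but no call in edgeR (log2 fold change -1.56, SE 0.26, adjusted p = 0.862). DESeq2 gave this difference an adjusted p of 0.00162. CXCL9, induced by interferon gamma and also a ligand of CXCR3, had 402 UMIs in the right bleb, of which myeloid-like cells held 339. In the left bleb it had 295 UMIs, and 189 of them were in cells placed in none of the main classes, so their source is not known; Müller glia-like cells held 72 and myeloid-like cells 24. Its myeloid level was 137 and 26.9 CPM in the right and left blebs and 6.99 and 14.9 CPM in the uninjected libraries, and it was not called. In Müller glia CXCL9 had 2 and 72 UMIs in the right and left blebs and CXCL11 had 35 and 3, while both had 0 UMIs in the uninjected libraries. The pair therefore leaned to opposite eyes. CCL2, which recruits monocytes, had 5.97 and 1.45 CPM in bleb Müller glia and 2.99 and 0.717 CPM in uninjected Müller glia, and these ranges overlapped.

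**Figure D3:**
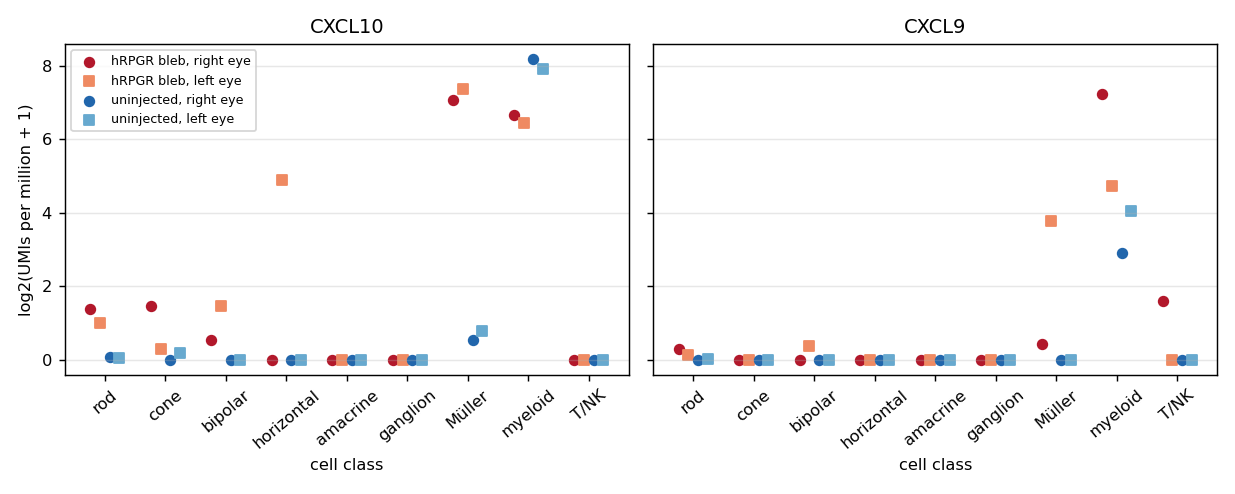
CXCL10 and CXCL9 in each cell class as log2(unscaled CPM + 1), with 1 point per library. In Müller glia CXCL10 of both blebs stood far above both uninjected libraries, while in myeloid cells the uninjected libraries were higher.

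Several genes of Müller glia with the lowest p in their lists were higher in both blebs but were not called. SERPINA3, an acute-phase protease inhibitor, had 11.9 and 12.5 CPM in the right and left blebs and 0 and 0.717 CPM in uninjected retina (adjusted p = 0.614). GFAP, the intermediate filament of reactive glia, had 187 and 132 CPM against 61.8 and 59.1 CPM. LCN2, an iron-binding acute-phase protein, had 15.2 and 13.9 CPM against 1.61 and 1.02 CPM. These 3 genes did not overlap between the groups, and 11.3% of all tested genes had both blebs above both uninjected libraries. IDO1, the interferon-induced enzyme that degrades tryptophan, had 20.3 and 11.4 CPM against 0.689 and 1.33 CPM, and CD74, the invariant chain of MHC class II, had 35.8 and 30.8 CPM against 10.8 and 6.76 CPM. GBP3, an interferon-induced GTPase, had 47.4 and 37.1 CPM against 8.73 and 4.61 CPM. DESeq2 called SERPINA3, LCN2, IDO1, CD74 and GBP3, 5 of the 33 genes it called in this class. CD74 was lower in Müller glia than in free RNA of the same libraries (268 and 144 CPM in the blebs, 60.6 and 57.2 CPM in uninjected retina) and is read as background. On the low side S100A4, a calcium-binding protein, had 1.19 and 1.81 CPM against 8.04 and 14.5 CPM, and HEPACAM, a glial adhesion protein, had 8.53 and 8.88 CPM against 23.9 and 18.1 CPM.

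By list, 0 of 24 tested Müller gliosis genes were called and their median log2 fold change was 0.20, against -0.01 over all genes of the class, with 11 of the 24 above both uninjected libraries (11.3% of all genes were). For complement 9 of 17 were above both, and the median was 0.39 (0.77 right, 0.73 left). Among these, CFB, which starts the alternative pathway, had 55.6 and 16.1 CPM against 3.45 and 7.06 CPM. MHC class II summed to 101.5 and 85.3 CPM in bleb and 58.6 and 28.2 CPM in uninjected Müller glia, below the free RNA of every library (431 and 224.5 CPM against 92.2 and 102 CPM), so it is read as background. Müller homeostasis genes, 20 tested and partly gate markers, had a median of -0.09 with eyes of opposite sign (-0.53 and 0.19). Summed markers of myeloid cells in Müller glia-like cells were 40.1 and 21.2 CPM in the blebs and 16.0 and 12.2 CPM in uninjected retina; their part in the complement values was not tested.

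Several MHC class I genes were higher in horizontal cells of both blebs. In horizontal-like cells, which give photoreceptors lateral feedback, 15 of 9618 genes were called (0.156%), all of them raised. The class rests on 57 and 32 cells in the right and left blebs and 70 and 46 in uninjected retina. MAMU-A, a classical MHC class I heavy chain (chromosome 4, 139971826 to 139975522, minus strand), had 465 and 369 CPM in the right and left blebs against 54.2 and 42.2 CPM. It rose by 3.09 (SE 0.25, adjusted p = 0.00106). Mamu-B, another heavy chain, had 1128 and 834 CPM against 144 and 54.0 CPM and rose by 3.25 (SE 0.35, adjusted p = 0.00654). The blebs were thus several times above both uninjected libraries for each heavy chain. These genes belong to a multigene family whose copies can share reads, so values of single members are uncertain. The unnamed gene ENSMMUG00000064139 rose by 2.66 (SE 0.27), and these 3 genes kept their calls when any 1 library was left out. Beyond them AG, a further MHC class I gene by its name in the files, had 64.0 and 35.6 CPM against 6.43 and 1.69 CPM.

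B2M, the light chain of every MHC class I molecule and the owner of the promoter cores shown above, had 587 and 533 CPM in horizontal-like cells of the right and left blebs and 154 and 43.9 CPM in uninjected retina. It rose by 2.42 (SE 0.38, adjusted p = 0.0413), and DESeq2 did not call it (adjusted p = 0.0630). NLRC5, the transactivator of MHC class I genes, had 79.2 and 45.4 CPM against 14.7 and 8.43 CPM. IRF1, a transcription factor of the interferon gamma response (chromosome 6, 129931179 to 129938722, minus strand), had 29.5 and 57.3 CPM against 1.84 and 5.06 CPM. BST2, tetherin, which holds budding virus at the cell surface, had 37.6 and 79.0 CPM against 1.84 and 3.37 CPM, from 2 UMIs in each uninjected library (pooled ratio 22.0, exact 95% counting interval 8.26 to 82.8); without the right uninjected library its call was lost (log2 fold change 3.97, adjusted p = 0.397). For each of these 4 genes the groups did not overlap, and 15.0% of all tested genes had both blebs above both uninjected libraries. The counting interval of BST2 leaves out the spread between cells and libraries. BTN3A3 and BTN2A2, butyrophilins of the immunoglobulin family that act on T cells, were also called, with 52.8 and 45.4 CPM against 6.43 and 1.69 CPM for BTN3A3. RASD1, a small G protein known as a dexamethasone-induced transcript, had 49.8 and 63.2 CPM against 9.19 and 15.2 CPM and an adjusted p of 0.0399. The other 12 calls were lost when some library was left out, and with the eye as a block 4 of the 15 lost their call: BTN2A2 (adjusted p = 0.0532), B2M (0.0617), AG (0.0748) and NLRC5 (0.0869). coRPGR was the remaining named call, with 296 and 24 UMIs against 2 and 0, a level below free RNA. Free RNA of several of these genes was also higher in both blebs, and most so in the right: B2M had 539 and 124 CPM in free RNA of the right and left blebs against 66.2 and 65.8 CPM, MAMU-A 304 and 54.0 CPM against 11.2 and 42.9 CPM, and Mamu-B 546 and 98.2 CPM against 27.6 and 49.4 CPM. In the left bleb, unscaled B2M, MAMU-A and Mamu-B in horizontal-like cells (516, 357 and 807 CPM) were several times those free RNA levels, while in the right bleb (582, 461.5 and 1120 CPM) B2M was close to its own and the heavy chains were above theirs. IRF1 in the right bleb (29.2 CPM unscaled) was below free RNA (35.2 CPM), and in the left bleb (55.4 CPM) it was above it (12.3 CPM). The part of free RNA in the calls was not tested.

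**Figure D4:**
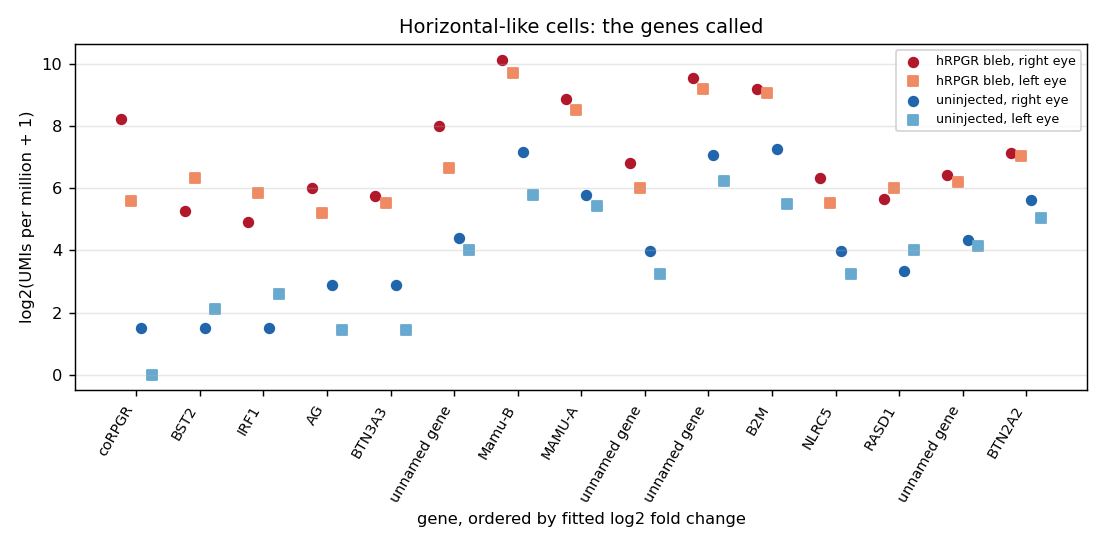
The 15 genes called in horizontal-like cells as log2(CPM + 1), ordered by fitted log2 fold change, with 1 point per library. Both blebs lay above both uninjected libraries for each gene.

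The MHC class I loading list in horizontal-like cells had 2 of 12 tested members called, MAMU-A and B2M, and a median of 1.06 (right 0.94, left 0.87) against 0.00 over all genes. Both blebs were above both uninjected libraries for 8 of the 12, against 15.0% of all genes of the class. PSMB8, an immunoproteasome subunit, had 63.0 and 158 CPM against 30.3 and 6.75 CPM and was not called. Of the immediate early genes, FOS had 836 and 1217 CPM against 480 and 557 CPM, and JUNB had 70.1 and 63.2 CPM against 30.3 and 27.0 CPM, without a call. Heat shock and immediate early genes together had 0 of 16 called, 7 above both and 8 of opposite sign in the 2 eyes, with eye medians of -0.04 and 0.75. The glutamate receptor list had 0 of 8 called and a median of -0.01, and the GABA and glycine list had 0 of 10 called and a median of -0.08. SLC32A1, which loads GABA and glycine into vesicles, had 4.06 and 13.8 CPM against 30.3 and 23.6 CPM and was not called. Rod markers in horizontal-like cells summed to 2041 and 371 CPM in the blebs and 850 and 2945 CPM in uninjected retina.

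Bipolar cells, which carry the photoreceptor signal inward, had no gene called by edgeR. Of 13172 genes 0 were called by edgeR (0.0%), 434 had an unadjusted p under 0.05, and DESeq2 called 14. IRF1 had 26.1 and 17.5 CPM in the right and left blebs against 4.37 and 6.63 CPM, and PSMB8 had 45.6 and 43.9 CPM against 17.1 and 7.77 CPM. MAMU-A had 454 and 316 CPM against 165 and 85.0 CPM, and B2M had 405 and 258 CPM against 136 and 52.3 CPM. BTN2A2 had 120 and 93.1 CPM against 43.5 and 33.8 CPM and the lowest p of the class (log2 fold change 1.46, SE 0.17, adjusted p = 0.295 in edgeR and 3.95e-10 in DESeq2). In each of these 5 genes, named by low p, both blebs were above both uninjected libraries, as were 14.8% of all tested genes. In the right bleb IRF1, PSMB8 and B2M were below their free RNA levels of 35.2, 67.01 and 539 CPM, and in the left bleb they were above theirs of 12.3, 14.6 and 124 CPM; the part of free RNA was not tested. Of the glutamate cascade of ON bipolar cells, which holds 4 of the markers that chose the cells, 0 of 13 tested genes were called. The median was -0.02. TRPM1, its cation channel, is 1 of these markers. The TRPM1 level (1723 and 1587 CPM against 1651 and 1417 CPM) therefore describes the class and does not test it. GRM8, an inhibitory glutamate receptor, was higher at 44.9 and 29.5 CPM against 6.19 and 15.2 CPM, with an adjusted p of 0.737 in edgeR and 0.0251 in DESeq2. The neuron injury list had a median of -0.02 over 13 genes (right -0.07, left -0.15), with 0 above both and 3 below both, against 14.1% of all genes below both.

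In amacrine-like cells, the inhibitory interneurons of the inner retina, 0 of 11552 genes were called by edgeR (0.0%), 283 had an unadjusted p under 0.05, and DESeq2 called 0. NLRC5 had 17.7 and 22.5 CPM in the right and left blebs against 0 and 2.90 CPM, and PSMB9, an immunoproteasome subunit, had 11.8 and 12.7 CPM against 4.14 and 2.90 CPM. NLRC5 of the right bleb was below its free RNA level (20.5 CPM), as was PSMB9 in every library but the left bleb, and the part of free RNA was not tested. SLC5A7, the choline transporter of starburst amacrine cells, had 12.3 and 24.4 CPM against 0 and 0.725 CPM (adjusted p = 0.298). PTN, the growth factor pleiotrophin, was lower at 57.4 and 57.6 CPM against 187 and 126 CPM, and SEMA3E, a guidance cue, was lower at 13.4 and 8.79 CPM against 101 and 50.04 CPM. None of these 5 genes, named by low p, overlapped between the groups. Of all tested genes 14.1% had both blebs above both uninjected libraries and 13.6% had both below. Transporters and receptors of GABA and glycine had 0 of 22 called. This list holds 4 of the markers that chose the cells. SLC6A9, the glycine transporter, is 1 of them, so its level (168 and 174 CPM against 310 and 256 CPM) describes the class and does not test it. The MHC class I list had 2 of 15 above both uninjected libraries, against 14.1% of all genes, and 4 of 15 below both, against 13.6%.

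Ganglion cells, whose axons form the optic nerve, had 3 of 10897 genes called (0.0275%), 1 raised (0.00918%) and 2 lowered (0.0184%). S100B, a calcium-binding protein, had 223 and 294 CPM in the right and left blebs against 31.8 and 39.5 CPM, and it rose by 2.83 (SE 0.25, adjusted p = 0.000631). TAC1, the precursor of substance P, had 0 and 2 UMIs in the blebs and 191 and 429 in uninjected retina, a fall with an adjusted p of 4.55e-05. The pooled ratio of TAC1 was 0.00311 with a counting interval of 0.000376 to 0.0113, which leaves out the spread between cells and libraries. Both calls held with the eye as a block and when any 1 library was left out. Among cells with at least 1% mitochondrial UMIs S100B kept its call (edgeR adjusted p = 0.00133) and SEMA3E did not (adjusted p = 0.328). TAC1 did not pass the filter on low counts in those cells, so its call could not be checked there. The median ganglion-like cell held 1.785 and 1.71% mitochondrial UMIs in the right and left uninjected libraries. Which cells held the TAC1 UMIs was not tested. SEMA3E had 2.77 and 2.04 CPM in the right and left blebs against 25.9 and 23.0 CPM and fell by 3.24 (SE 0.44), with an adjusted p of 0.0430 and, with the block, 0.0660; the call was lost without any 1 of the 4 libraries. Not called but close, GAD2, which makes GABA, had 12.2 and 7.12 CPM against 39.3 and 47.8 CPM (adjusted p = 0.0530), and KCNA1, a voltage-gated potassium channel, had 29.4 and 27.5 CPM against 6.69 and 4.72 CPM (adjusted p = 0.0530). TNFRSF10B, a TRAIL death receptor, had 46.5 and 44.8 CPM against 15.9 and 12.4 CPM (adjusted p = 0.0730).

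The ganglion-like class also differed between libraries in cell number and in UMIs per cell. It had 85 and 22 cells in the right and left blebs and 32 and 54 in uninjected retina, and the median UMIs per cell were 4849 in the right bleb and 30140 to 47710 in the other 3 libraries. The 3 astrocyte markers, S100B among them, summed to 211 and 285 CPM in the blebs and 46.0 and 40.2 CPM in uninjected retina. S100B alone had 403 and 289 UMIs in the blebs and 38 and 67 in uninjected retina, so the sum mostly repeats its call. GFAP was at 1 and 0 UMIs in the blebs and at 2 and 0 in uninjected retina. The part of astrocyte RNA was not tested. The 11 amacrine markers summed to 175 and 204 CPM against 180 and 284 CPM. TAC1 was not low in every class: amacrine-like cells had 374 UMIs of it in the right bleb, 0 in the left bleb, and 8 and 85 in uninjected retina. Whether the punches sampled different ganglion cell types was not tested. The neuron injury list in ganglion-like cells had 0 of 12 called, 0 above both uninjected libraries and 2 below both, against 17.7% of all genes below both. GAP43, a growth cone protein, had 64.8 and 40.7 CPM against 118 and 94.4 CPM. MHC class I loading had 7 of 15 above both, against 17.3% of all genes, with a median of 0.29.

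Myeloid cells had 0 calls among 10626 genes (0.0%), with 560 at an unadjusted p under 0.05 and 5 called by DESeq2. APOC2, an apolipoprotein, had 56.6 and 70.6 CPM in the right and left blebs against 4.66 and 8.53 CPM (log2 fold change 3.23, SE 0.39, adjusted p = 0.226). LGALS3, a galectin of activated phagocytes, had 845 and 524 CPM against 126 and 211 CPM. GPNMB, a marker of lipid-laden phagocytes, had 2576 and 276 UMIs against 0 and 40, and CTSD, a lysosomal protease, had 989 and 379 CPM against 221 and 224 CPM. All 4 genes were higher in both blebs, and the right bleb was the higher of the 2 for each but APOC2. The activated myeloid list, which holds 3 of the markers that chose the cells, had 9 of 23 above both uninjected libraries (16.0% of all genes were). Its medians were 0.71 (right) and 0.43 (left). Müller markers in myeloid-like cells summed to 13860 and 7027 CPM in the blebs against 5548 and 4809 CPM. This list shares APOE with the activated myeloid list, so the sum does not measure Müller RNA alone. In T/NK-like cells the same sum was 267 and 319 CPM in the blebs and 85.8 and 361 CPM in uninjected retina. The myeloid markers in myeloid-like cells had 11640 and 9865 CPM against 15610 and 11080 CPM. The part of Müller RNA in the myeloid values was not tested. Homeostatic microglia genes moved apart between eyes, with medians of -1.42 on the right and 0.46 on the left. Of this list 3 genes, P2RY12 and CX3CR1 among them, are markers that chose the cells. Their levels describe the class and do not test it. P2RY12, the microglial ADP receptor, had 139 and 333 CPM in the right and left blebs against 750 and 243 CPM, and CX3CR1, the fractalkine receptor, had 189 and 388 CPM against 962 and 258 CPM. For both genes the right bleb was below both uninjected libraries and the left bleb lay between them. ADARB2, of the family of RNA editing enzymes, had 1 and 2 UMIs against 13 and 21; in rod-like cells it was also lower, at 5.49 and 12.03 CPM against 45.1 and 243 CPM, and the part of free rod RNA was not tested. MHC class II had a median of 0.13 over 10 genes in myeloid-like cells, against 1.98 over all cells.

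T/NK-like cells had 0 calls among 6505 genes (0.0%), with 398 at an unadjusted p under 0.05 and 4 called by DESeq2. CXCL13, a B cell attractant made by T cells in inflamed tissue, had 129 and 34 UMIs in the right and left blebs and 0 in both uninjected libraries, at least 16.8-fold higher against a floor of 3 counts over the group (edgeR adjusted p = 0.0786, DESeq2 0.00801). MKI67, a marker of cycling cells, had 41 and 62 UMIs against 0 and 0, at least 10.6-fold higher by the same floor. The bounds for CXCL13 and MKI67 pool the UMIs of a group. They cover counting only and leave out the spread between cells and libraries. IL10, a suppressive cytokine, had 155 and 145 CPM against 26.4 and 23.2 CPM. Of the T cell state list, TIGIT, an inhibitory receptor, had 739 and 685 CPM against 396 and 379 CPM, CTLA4, another, had 316 and 254 CPM against 119 and 155 CPM, and TOX, a factor of exhausted T cells, had 624 and 789 CPM against 409 and 387 CPM. None of these 6 genes overlapped between the groups. They were named by low p, and 20.2% of all tested genes had both blebs above both uninjected libraries. CGA, the alpha subunit of pituitary hormones, had the lowest p of the class, at 739 and 441 CPM against 79.2 and 30.9 CPM (adjusted p = 0.0786). The T cell state list as a whole, which holds 5 of the markers that chose the cells, had 7 of 33 above both, against 20.2% of all genes. It had 6 below both, and medians of -0.37 and 0.30. IFNG had 16 and 7 UMIs over all cells of the right and left blebs and 1 and 3 in uninjected retina, and T/NK-like cells held 20 of the 23 bleb UMIs. At 28.1 and 29.4 unscaled CPM in bleb T/NK-like cells against 12.3 and 22.1 CPM, the difference in IFNG per cell was not detectable at this depth. Only 23 and 33 cells stand behind the uninjected values of this class.

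B/plasma-like cells were too few outside the right bleb for a fit. JCHAIN, the joining chain of secreted antibody, had 93600 UMIs in the right bleb, 82 in the left bleb and 1264 and 596 in the uninjected libraries. In the right bleb IGHM, the heavy chain of IgM, had 35001 UMIs, against 25 in the left bleb and 10 and 32 in uninjected retina. MS4A1, the B cell marker CD20, had 94 and 34 UMIs in the right and left blebs and 0 and 12 in uninjected retina. These sums rest on 106 cells in the right bleb and on 1 to 5 cells in each other library. As unscaled CPM within the class, JCHAIN was 41740 and 1302 in the right and left blebs and 69570 and 6981 in uninjected retina, so the groups overlapped. JCHAIN and MS4A1 are among the markers that chose these cells, so their levels in the class describe it and do not test it. Over all cells JCHAIN had 105376 and 5384 UMIs in the right and left blebs and 4631 and 4195 in uninjected retina.

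Interferon genes were compared across classes in 3 lists. For the type I list in Müller glia, summed levels were 26210 and 4959 CPM in the right and left blebs and 30380 and 2731 CPM in the right and left uninjected libraries. The right uninjected library was therefore as high as the right bleb, and both right libraries were above both left ones. With all libraries the median of the 37 tested genes in Müller glia was 0.03 (right eye -0.10, left eye 1.17), and without the right uninjected library it was 2.55. In horizontal-like cells it was 0.43, and 4.23 without that library, with BST2 the 1 member called of 22. Amacrine-like cells had 0.71 and 1.98, and bipolar-like cells had 0.33 and 1.44. In rod-like cells it was 1.74 and 2.27, with medians of 2.29 (right) and 0.16 (left) within each eye. Ganglion-like cells had 0.17 and 1.19, cone-like cells 0.31 and 1.13, and all cells together 0.56 and 2.04. In myeloid-like cells (-0.09 and 0.72) and T/NK-like cells (-0.12 and 0.97) the sign turned. The type I medians of Müller glia, horizontal-like, bipolar-like and amacrine-like cells thus depended on which uninjected library served as reference, more than that of rod-like cells did. MHC class I loading moved less: 0.47 and 1.22 in Müller glia, 0.27 and 0.67 in bipolar-like cells, and 1.06 and 1.22 in horizontal-like cells, each with all libraries and then without the right uninjected one. The interferon gamma list had 12 of 25 members above both uninjected libraries in Müller glia (11.3% of all genes were) and 10 of 20 in bipolar-like cells (14.8%). Horizontal-like cells had 6 of 16 above both (15.0%), with IRF1 and NLRC5 called. Rod-like cells had 13 of 26 (9.23%), cone-like 5 of 19 (16.9%) and amacrine-like 3 of 15 (14.1%). Myeloid-like cells had 4 of 27 (16.0%), ganglion-like 1 of 13 (17.3%) and T/NK-like 1 of 16 (20.2%). Below both were 0 in Müller glia (12.4% of all genes were), 4 in bipolar-like (14.1%) and 1 in horizontal-like cells (14.9%). Rod-like cells had 1 below both (10.3%), cone-like 2 (14.8%) and amacrine-like 2 (13.6%). Myeloid-like cells had 4 (12.8%), ganglion-like 2 (17.7%) and T/NK-like 3 (14.9%). The median of this list in Müller glia was 0.37, 1.43 without the right uninjected library and 0.71 without the left bleb. Without the left bleb the type I median in Müller glia was 0.70. The MHC class I loading median without it was 0.74 in Müller glia and 0.54 in bipolar-like cells.

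**Figure D5:**
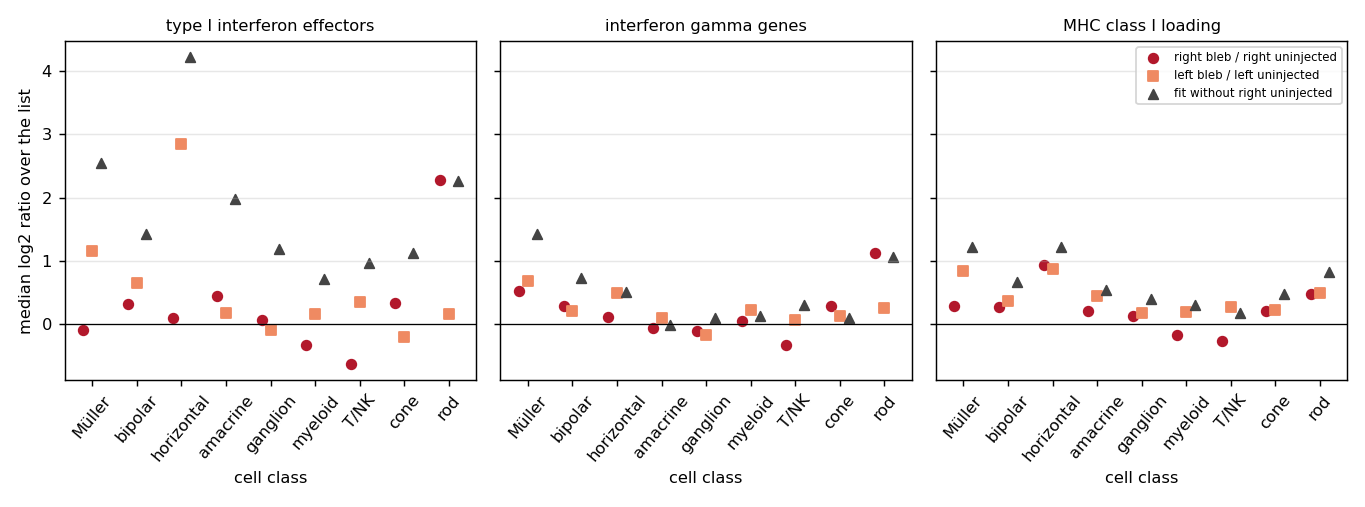
Median log2 ratio over the tested members of 3 gene lists in each class, for the right eye, the left eye, and the fit without the right uninjected library. Without that library the type I interferon medians were higher, 2.55 in place of 0.03 in Müller glia and 4.23 in place of 0.43 in horizontal-like cells, while MHC class I loading in horizontal-like cells was near 1 throughout.

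Photoreceptors themselves had few calls. In cone-like cells 2 of 12240 genes were called (0.0163%). ERBB4, a neuregulin receptor (chromosome 12, 98688163 to 99874927, minus strand), had 89.1 and 63.1 CPM in the right and left blebs against 7.70 and 6.91 CPM, and it rose by 3.38 (SE 0.24, adjusted p = 0.0167). The unnamed gene ENSMMUG00000064120, also called in horizontal-like cells, had 37 and 25 UMIs against 3 and 1 (adjusted p = 0.0246, and 0.0850 with the block). Both calls were lost when the right bleb or either uninjected library was left out, with adjusted p up to 0.118 for ERBB4, and that of the unnamed gene also without either mScarlet library. MAMU-A had 53.0 and 18.3 CPM in cone-like cells against 5.09 and 6.19 CPM and was not called; it was below free RNA in all 4 libraries and is read as background. In rod-like cells 0 of 15562 genes were called (0.0%), with 394 at an unadjusted p under 0.05 and 62 called by DESeq2. PSMB9 had 38.6 and 20.3 CPM in rods against 3.83 and 2.25 CPM, and CD74 had 43.8 and 25.8 CPM against 3.83 and 6.11 CPM. Both were higher in each eye, but CD74 was below free RNA in all 4 libraries and PSMB9 was above it in the left bleb alone (free RNA 49.8 and 10.3 CPM in the blebs, 6.73 and 3.58 CPM in uninjected retina).

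Summed over all cells, 0 of 18683 genes were called by edgeR (0.0%), 1134 had an unadjusted p under 0.05, and DESeq2 called 475, of which 463 were higher in the blebs. In these sums more cells of a type and more RNA per cell cannot be told apart. BCL2A1, a survival gene of leukocytes, had 13.2 and 11.4 CPM in the right and left blebs against 3.20 and 3.55 CPM, and CD52, a leukocyte surface glycoprotein, had 12.5 and 11.95 CPM against 4.83 and 3.96 CPM (edgeR adjusted p = 0.194 for both). The interferon gamma list had 17 of 27 members above both uninjected libraries, against 14.2% of all genes, and MHC class II had 8 of 10. A gene of retinal position also differed. FOXD1, a factor of the developing temporal retina, had 34 and 43 UMIs in the blebs and 0 in both uninjected libraries. This position gene was thus detected in the blebs of both eyes and in neither uninjected library. The part of retinal position in the other differences was not tested, and it cannot be told apart from treatment in these 4 libraries.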

How the data were processed

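The data were deposited by the authors as unfiltered matrices of whole-number UMI counts, 1 per library, made from 5′ 10x libraries of papain-dissociated retinal punches with Cell Ranger on a custom Mmul_10 reference that held the transgenes. The study's later steps (SoupX, scDblFinder, Harmony and DESeq2) are not in these counts, so free RNA and doublets remain here. Barcodes with at least 1500 UMIs and 300 genes were kept and classed by a score over marker genes. A class needed a score of at least 8, at least 2 different markers and a margin of 5 over the next class. Cells that met the rule of a class but passed a ceiling on rod marker UMIs were set apart as mixed. The doublet caller marked at most 2 cells a library and was taken not to have worked, so the cells with the highest scores were left out as an alternative. UMIs were summed per library and class, scaled by TMM after filterByExpr, and compared over all genes by the quasi-likelihood test of edgeR 4.0.16 (Benjamini-Hochberg adjustment, threshold 0.05), with DESeq2 1.42.0 as an alternative. The 6 NHP2 libraries shared 1 estimate of the spread. The scripts were tested on simulated data, where 82% of genes changed 4-fold were recovered among 9389 genes in horizontal-like cells and 51% among 6139 in T/NK-like cells.

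The members and gene lists were chosen with earlier results of these data known. Named per class were the 5 raised and 3 lowered genes with the lowest p (filled up with genes not called), up to 4 genes per list, coRPGR, RPGR and 4 chemokines; further genes were named after their values were seen, among them FOXD1 and TAC1 outside ganglion-like cells, JCHAIN, IGHM and MS4A1. Replicate numbers stand for the eye. Deviations of libraries from the same eye correlated over the classes at -0.56 to 0.04 between hRPGR bleb and uninjected retina, at -0.31 to 0.22 between mScarlet bleb and uninjected retina and at -0.20 to 0.25 between the blebs; in no class were all 3 above 0.1, so the eye was a block only as an alternative. Other alternatives were RLE or no scaling, no filter on low counts, other cell filters, 4 libraries only, and each library left out. Sequences came from RefSeq on Mmul_10. One result that needs a withheld item is not reported here.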

Additional observations from a re-analysis of the deposited data

Results flagged for a closer look

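Gene lists whose median log2 ratio of bleb to uninjected retina had opposite signs in the 2 eyes, each at least 0.3 in size, numbered 10 of the 76 list medians, and the difference between the eyes was not tested. The type I interferon list in T/NK-like cells had -0.63 (right) and 0.35 (left); its fitted median was -0.12, and 0.97 without the right uninjected library. Homeostatic microglia genes in myeloid-like cells had -1.42 and 0.46, T cell state genes in T/NK-like cells had -0.37 and 0.30, and neuron injury genes in horizontal-like cells had -0.55 and 0.37. The microglia list holds 3 and the T cell state list 5 of the markers that chose those cells.

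Rod genes, used as a measure of free rod RNA in other cells, made up the other 6. The right and left medians were 0.87 and -1.35 in Müller glia-like cells, 1.11 and -1.64 in bipolar-like cells, 1.19 and -2.77 in horizontal-like cells, 0.86 and -1.06 in amacrine-like cells, 1.35 and -0.67 in myeloid-like cells, and 1.22 and -1.50 in T/NK-like cells.

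Outside the cells, coRPGR was found in free RNA at 3482 CPM in the right bleb and 2251 CPM in the left, above the uninjected libraries. The mScarlet transgene, which belongs to another bleb of the same eyes, was found over all cells at 0.0483 CPM in the right hRPGR bleb and 0.812 CPM in the left, and at 0 in uninjected retina.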

How the results depend on the processing

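Counts of genes called depended on the tool and filter. DESeq2 called 475 genes over all cells, 62 in rod-like, 40 in cone-like, 14 in bipolar-like, 17 in ganglion-like, 33 in Müller glia-like, 5 in myeloid-like and 4 in T/NK-like cells. With no filter on low counts edgeR called 43 over all cells, 138 in cone-like, 156 in bipolar-like, 88 in horizontal-like, 42 in amacrine-like, 182 in ganglion-like, 5 in Müller glia-like, 175 in myeloid-like and 71 in T/NK-like cells. Fitting 4 libraries only gave 1 in cone-like and 3 in horizontal-like cells. Cells with at least 1% mitochondrial UMIs gave 1 in cone-like, 10 in bipolar-like, 7 in horizontal-like, 6 in ganglion-like and 0 in Müller glia-like cells, and leaving out the highest doublet scores gave 10 in ganglion-like cells.

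With the eye as a replicate block 1 gene was called over all cells and 1 in amacrine-like cells, and the other counts stayed within 1.5 times; apart from the calls named as lost beside their values, the block ended no other call. Chosen after seeing the data, blocked fits of 4 libraries gave 224 over all cells, 4 in cone-like, 14 in amacrine-like, 70 in ganglion-like and 0 in Müller glia-like cells with the eye. The crossed replicate block gave 137 in rod-like, 172 in cone-like, 1 in bipolar-like, 49 in horizontal-like, 27 in amacrine-like, 0 in Müller glia-like and 53 in myeloid-like cells.

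Leaving out 1 library at a time gave 0 to 281 calls over all cells, 0 to 45 in rod-like, 0 to 14 in cone-like, 0 to 14 in bipolar-like, 4 to 14 in horizontal-like, 0 to 1 in amacrine-like, 2 to 12 in ganglion-like, 1 to 2 in Müller glia-like and 0 to 3 in T/NK-like cells; the highest counts over all cells, rod-like, cone-like and bipolar-like cells came without the left bleb. As a percent of cells other than rod-like, bleb minus uninjected was 1.16 percentage points for T/NK-like, 1.43 for B/plasma-like and 4.05 for myeloid-like cells. Without the highest doublet scores the B/plasma-like share had an exact permutation p of 0.667. For single called genes 288 alternative values kept the call and 88 lost it, and none reversed. The cause of these changes was not tested.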
